A study of Caenorhabditis elegans with 33 samples.

Results

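Neuropeptide genes of *Caenorhabditis elegans* were followed through 4 generations of chronic gamma irradiation. The *flp* genes encode FMRFamide-like peptides and the *nlp* genes encode the other neuropeptide-like proteins. All genes with a WormBase symbol of *flp* or *nlp* and a number were taken, except *nlp-27* to *nlp-34*, which encode antimicrobial peptides of the epidermis. This gave 94 genes, 31 *flp* and 63 *nlp*, of the 46778 identifiers in the count files.

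The animals were wild-type N2 worms, grown at 19 °C from synchronised embryos for 65 h and sampled whole, with no transgene or mutation. The labels name the stage both as L4 and as young adult. Exposed animals received 50 mGy per h throughout this time in each of the generations F0, F1, F2 and F3. Recovery animals came from a line irradiated in F0 only, and were taken without irradiation in the F1 to F3 generations. Control animals were never irradiated and were sampled in all 4 generations. Each of the 11 groups held 3 libraries, 33 in all, which the labels call biological replicates. Whether each library came from its own irradiation is not stated, so the p-values measure the spread between libraries.

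Neuropeptides are cut from longer precursor proteins by proprotein convertases, trimmed by a carboxypeptidase and often amidated at their end. They are stored in dense core vesicles, released by neurons and some other cells, and read mainly by G protein-coupled receptors. In worms they modulate locomotion, feeding, egg laying, sleep, learning and stress responses. In whole animals, fewer cells of a type and less RNA per cell cannot be told apart.

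Library sizes lay between 27.7 and 60.8 M counts, with a median of 37.3 M. Between 91 and 94 of the 94 genes had at least 1 count in each library, and together they took 0.0973% to 0.144% of the counts. F3 recovery replicate 3 and F3 control replicate 3 stood apart, with 18240 and 19610 genes with a count against at least 20503 in each of the others. Levels are given as CPM, counts per M of library size after TMM scaling. Where genes are compared with each other, RPKM is used, which is CPM per kilobase of exon. A gene was called when its adjusted p in edgeR's quasi-likelihood test over all 17627 genes tested was under 0.05. The test covered 91 of the 94 genes, 30 *flp* and 61 *nlp*. The low-count filter removed *flp-23*, *nlp-22* and *nlp-39*, whose highest library reached 0.439, 0.106 and 0.154 CPM.

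The median of the mean levels of the 91 genes was 6.08 CPM; 37 genes had a mean above 10 CPM and 7 had a mean below 1 CPM. In the WBcel235 annotation all 94 were protein-coding, and 32 (34.04%) were on the X chromosome, against 13.5% of the 19725 protein-coding genes in the files. The share on X was 41.9% for *flp* and 30.2% for *nlp*. Their exons covered a median of 595 bases (240 to 1732), against 1168 for all protein-coding genes.

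Per exon length, *nlp-24* and *nlp-36* were the most abundant. *nlp-24*, a precursor of opioid-like peptides (V:11616376-11616828), had a median of 364 RPKM over the 33 libraries (236 to 558). *nlp-36* (III:9488731-9489186) had a median of 336 RPKM (240 to 406). The ranges of these 2 genes overlapped, and each overlaps exons of another gene on the opposite strand. *nlp-40* (I:11495-16837), which encodes an intestinal peptide that times defecation, followed at 157 RPKM (101 to 211). *nlp-49*, a precursor of peptides that promote arousal, had a median of 96.6 RPKM (85.2 to 122). *nlp-49* lay below *nlp-36* in every library, and its range overlapped that of *nlp-40*. The most abundant *flp* gene was *flp-1*, which acts in locomotion, at 58.3 RPKM (45.8 to 68.6). *nlp-26*, *flp-24*, *nlp-20*, *flp-22* and *flp-9* came next, with medians of 56.8, 48.9, 44.7, 41.1 and 39.1 RPKM. The level of *nlp-26* is uncertain, since its exons overlap a gene on the opposite strand. From *flp-1* to *flp-9* the ranges of neighbours in this order overlapped.

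**Figure D1:**
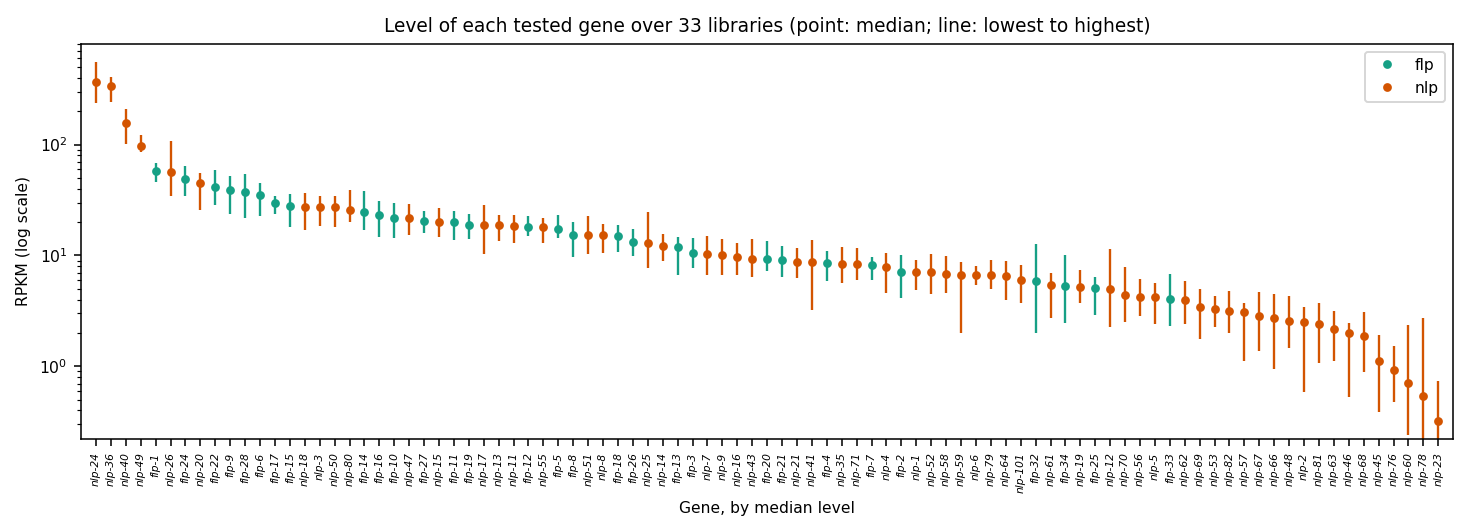
Level of each of the 91 tested genes over the 33 libraries, in RPKM on a log scale. Points are medians and lines run from the lowest to the highest library; lines that leave the lower edge of the plot include libraries near or at 0. The order runs from *nlp-24* to *nlp-23*.

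Among the comparisons within generations, F1 recovery against control had the median furthest from 0, and that of F3 recovery against control was also negative (-0.15). F1 recovery animals were the unirradiated offspring of the irradiated F0 generation. Most *flp* and *nlp* transcripts were slightly lower there than in F1 control animals: 82 of 91 had a negative log2 fold change and 9 a positive one, which 49.4% of all genes tested had, with a median of -0.27 against -0.0026 for all genes tested. Of the 91 genes 6 fell and none rose, a share of 6.59%, and 0.755% of all genes tested were called lower. In 47 genes all 3 recovery libraries lay below all 3 controls, and in 1 gene all lay above. Over all genes tested these shares were 12.2% and 13.9%. The pattern was in both families: 29 of 30 *flp* genes (median -0.27) and 53 of 61 *nlp* genes (median -0.26) had negative values. It was also alike for the 46 genes of higher mean level (median -0.26) and the 45 of lower mean level (median -0.27), and for the 31 tested genes on X and the 60 on autosomes (medians -0.26 and -0.27).

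The sum of all 94 genes was 1126, 1040 and 1053 CPM in the 3 F1 recovery libraries. In F1 control libraries it was 1247, 1233 and 1252 CPM. In F1 exposed libraries it was 1302, 1380 and 1264 CPM. The recovery libraries thus lay below the other 6 libraries of their generation. For each library the median over the 91 genes of the deviation from each gene's mean log2 CPM was also taken. It was -0.10 to -0.05 in F1 recovery, 0.15 to 0.23 in F1 control and 0.15 to 0.19 in F1 exposed libraries. F0 control libraries had values of -0.17 to 0.05 and F3 recovery libraries -0.31 to -0.11, so F1 recovery animals were low within F1 but not the lowest of the 11 groups. Of the 94 genes, 26 had their highest group mean in F1 exposed and 24 in F1 control animals. The lowest group mean was in F3 recovery animals for 31 genes, in F3 exposed for 17 and in F1 recovery for 12. Levels of different generations were not tested against each other, and generation and any difference in handling between generations cannot be told apart.

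**Figure D2:**
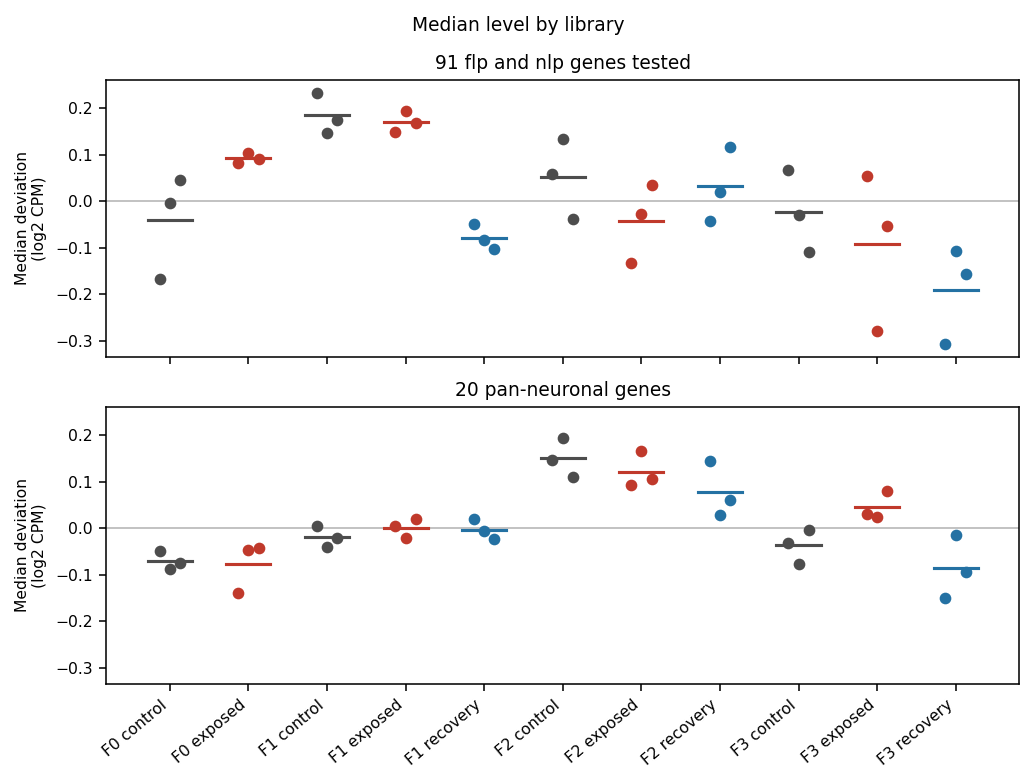
Median deviation of log2 CPM from each gene's mean over all libraries, for each of the 33 libraries (points) with the mean of each group of 3 (bars); the upper panel shows the 91 *flp* and *nlp* genes and the lower panel 20 pan-neuronal genes. F1 recovery libraries lie at -0.10 to -0.05 in the upper panel, below all F1 control and F1 exposed libraries, and at -0.02 to 0.02 in the lower panel, where the 3 groups of F1 overlap. The panels differ in exon length, with medians of 595 bases for the *flp* and *nlp* genes and 2686.5 for the pan-neuronal genes.

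Of the *flp* genes, *flp-4*, *flp-22*, *flp-34* and *flp-16* fell in F1 recovery against F1 control. *flp-4* (II:10048868-10055594) was at 4.44, 4.65 and 4.30 CPM in recovery and 6.91, 6.67 and 5.71 CPM in control libraries. Its groups did not overlap, and F1 recovery had the lowest mean of the 11 groups (log2 fold change -0.53 with an SE of 0.15, edgeR adjusted p = 0.046). *flp-22* (I:8658899-8659967) was at 18.8, 17.7 and 17.6 CPM in recovery and 28.04, 22.5 and 26.03 CPM in control libraries (log2 fold change -0.50 with an SE of 0.12, edgeR adjusted p = 0.019). Its F1 exposed libraries, at 20.3, 23.9 and 21.4 CPM, lay above the recovery libraries and overlapped the controls. *flp-34* (V:1027891-1033404), whose peptides are related to neuropeptide Y and act in olfactory learning, was at 5.12, 4.22 and 4.99 CPM in recovery and 6.84, 7.27 and 6.35 CPM in control libraries. The log2 fold change was -0.51 (SE of 0.14, edgeR adjusted p = 0.048). The F1 exposed libraries of *flp-34* overlapped the recovery libraries, at 4.93 ± 0.80 CPM (SD, n = 3), and lay below the controls without a call (edgeR adjusted p = 0.11). F1 control had the highest *flp-34* mean of the 11 groups, and this was also so for *flp-22* and *nlp-43*. *flp-16* (II:13235306-13237417) was at 13.5, 13.2 and 12.96 CPM in recovery and 19.8, 15.1 and 18.4 CPM in control libraries (log2 fold change -0.43 with an SE of 0.12, edgeR adjusted p = 0.042). The exons of *flp-16* overlap those of *romo-1* on the opposite strand, and the strand setting of the counting is not given in the sources used here, so its level is uncertain.

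Of the *nlp* genes, *nlp-13* and *nlp-43* fell. *nlp-13* (V:4236418-4238056) was at 11.5, 10.7 and 10.8 CPM in recovery and 15.3, 17.2 and 14.96 CPM in control libraries. Its log2 fold change was -0.52 (SE of 0.12, edgeR adjusted p = 0.012), and F1 recovery had its lowest mean of the 11 groups. *nlp-43* (III:5042412-5044672) was at 5.56, 4.52 and 4.96 CPM in recovery and 8.42, 6.22 and 7.44 CPM in control libraries (log2 fold change -0.55 with an SE of 0.15, edgeR adjusted p = 0.035). The F1 exposed mean of *nlp-43* lay between, at 5.95 ± 0.37 CPM (SD, n = 3).

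Among the most abundant members *nlp-24* had a log2 fold change of -0.02 (SE 0.22), *nlp-40* of -0.12 (SE 0.18), *nlp-36* of -0.29 (SE 0.13), *nlp-49* of -0.15 (SE 0.09) and *flp-1* of -0.14 (SE 0.08). None of these 5 was called. The gene in which all recovery libraries lay above all controls was *nlp-78*, at 0.189 ± 0.011 against 0.0779 ± 0.0328 CPM (SD, n = 3). This level rests on few reads, and *nlp-78* shares exon bases with another gene on its own strand.

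Each of these calls depended on single libraries. Without F1 recovery replicate 2 none of the 91 genes was called in F1 recovery against control. Without recovery replicate 1 or 3 the counts were 2 and 1, and without control replicate 1, 2 or 3 they were 1, 4 and 2, all lower. The call of *nlp-13* was lost without recovery replicate 2 (edgeR adjusted p = 0.062) or control replicate 2 (edgeR adjusted p = 0.083) and held without each of the other 4. The median over the 91 genes stayed between -0.29 and -0.22 in these 6 fits. Of all 17627 genes tested, 133 were called lower in the fit of all libraries and 31 to 113 in these 6 fits. With the 9 F1 libraries fitted alone 19 of the 91 genes were called lower, and 450 of all genes tested. DESeq2's test on all 33 libraries called 13 of the 91 lower, and 244 of all genes tested.

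**Figure D3:**
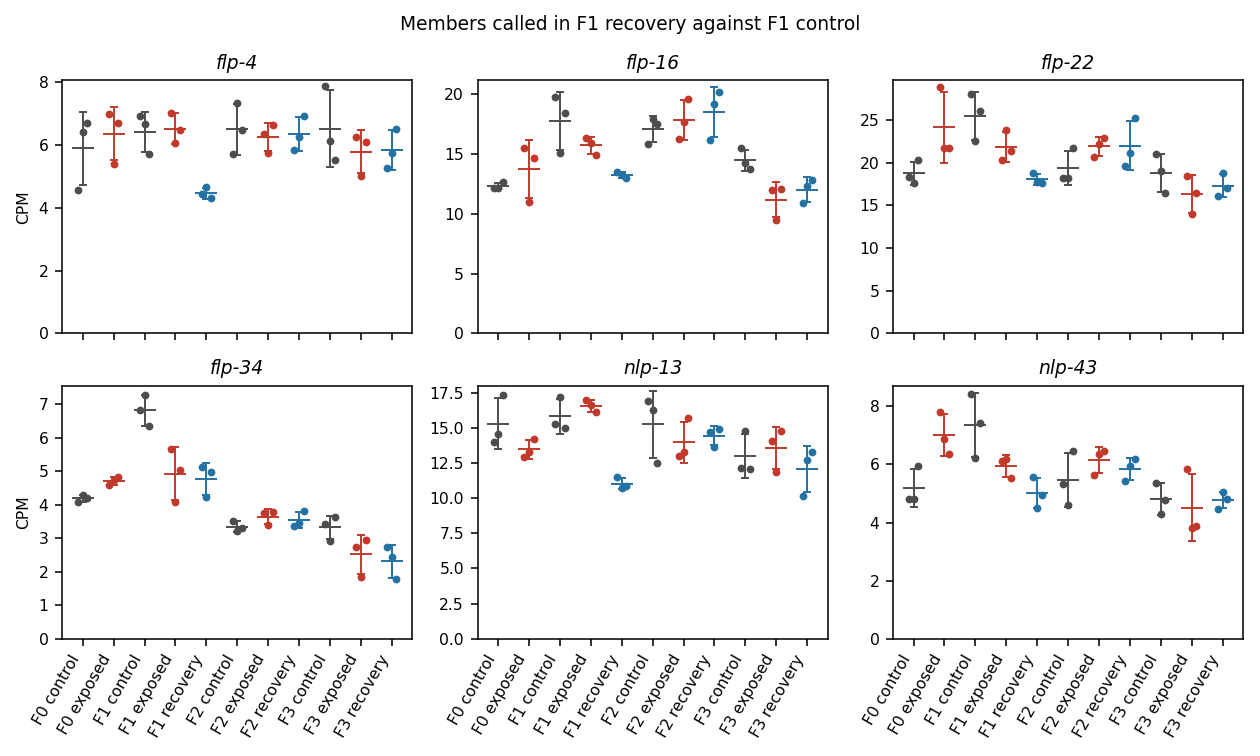
CPM of the 6 genes called in F1 recovery against F1 control, in each library (points) with the mean and SD of each group of 3 (bars), on axes that start at 0. In F1, the recovery libraries lie below the controls in each panel, and for *flp-4* and *nlp-13* F1 recovery has the lowest mean of the 11 groups. For *flp-22*, *flp-34* and *nlp-43* F1 control has the highest mean of the 11 groups.

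F1 exposed animals, compared with F1 recovery animals, showed the other side of this difference; both comparisons use the same 3 recovery libraries. Of the 91 genes 85 had a positive log2 fold change (median 0.25), against 48.8% of all genes tested, and among them were all 30 *flp* genes. In 48 genes the exposed libraries all lay above the recovery libraries, against 14.9% of all genes tested. Both called genes rose, 2.20% of the 91, and 0.919% of all genes tested were called higher. *nlp-13* was at 17, 16.6 and 16.1 CPM in exposed libraries, above all recovery libraries (log2 fold change 0.59 with an SE of 0.12, edgeR adjusted p = 0.0099). *nlp-56* (IV:14783324-14784737) was at 4.21, 3.47 and 4.09 CPM in exposed and 2.17, 1.98 and 2.83 CPM in recovery libraries (log2 fold change 0.75 with an SE of 0.15, edgeR adjusted p = 0.01). An exon of *nlp-56* overlaps a gene on the opposite strand. Without F1 recovery replicate 2 neither gene was called, and without recovery replicate 1 or 3 or exposed replicate 2 the count was 1. With a cuticle score (mean log2 CPM of collagen genes) as a covariate the median of the 91 genes was 0.13, with 14 negative, and *nlp-13* was not called.

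In F1 exposed against control animals none of the 91 genes was called, against 1.47% of all genes tested. In this comparison 3 genes had an unadjusted p under 0.05 and DESeq2 called 1. The median log2 fold change was -0.02 and took either sign in other settings, from -0.10 with the cuticle score to 0.03 without F1 exposed replicate 1. In 33 of the 91 genes (36.3%) all F1 recovery libraries lay below all 6 F1 exposed and control libraries, and 4.95% of all genes tested had this order. The F1 recovery mean lay below both other F1 means in 78 genes (85.7%, against 33.1%).

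**Figure D4:**
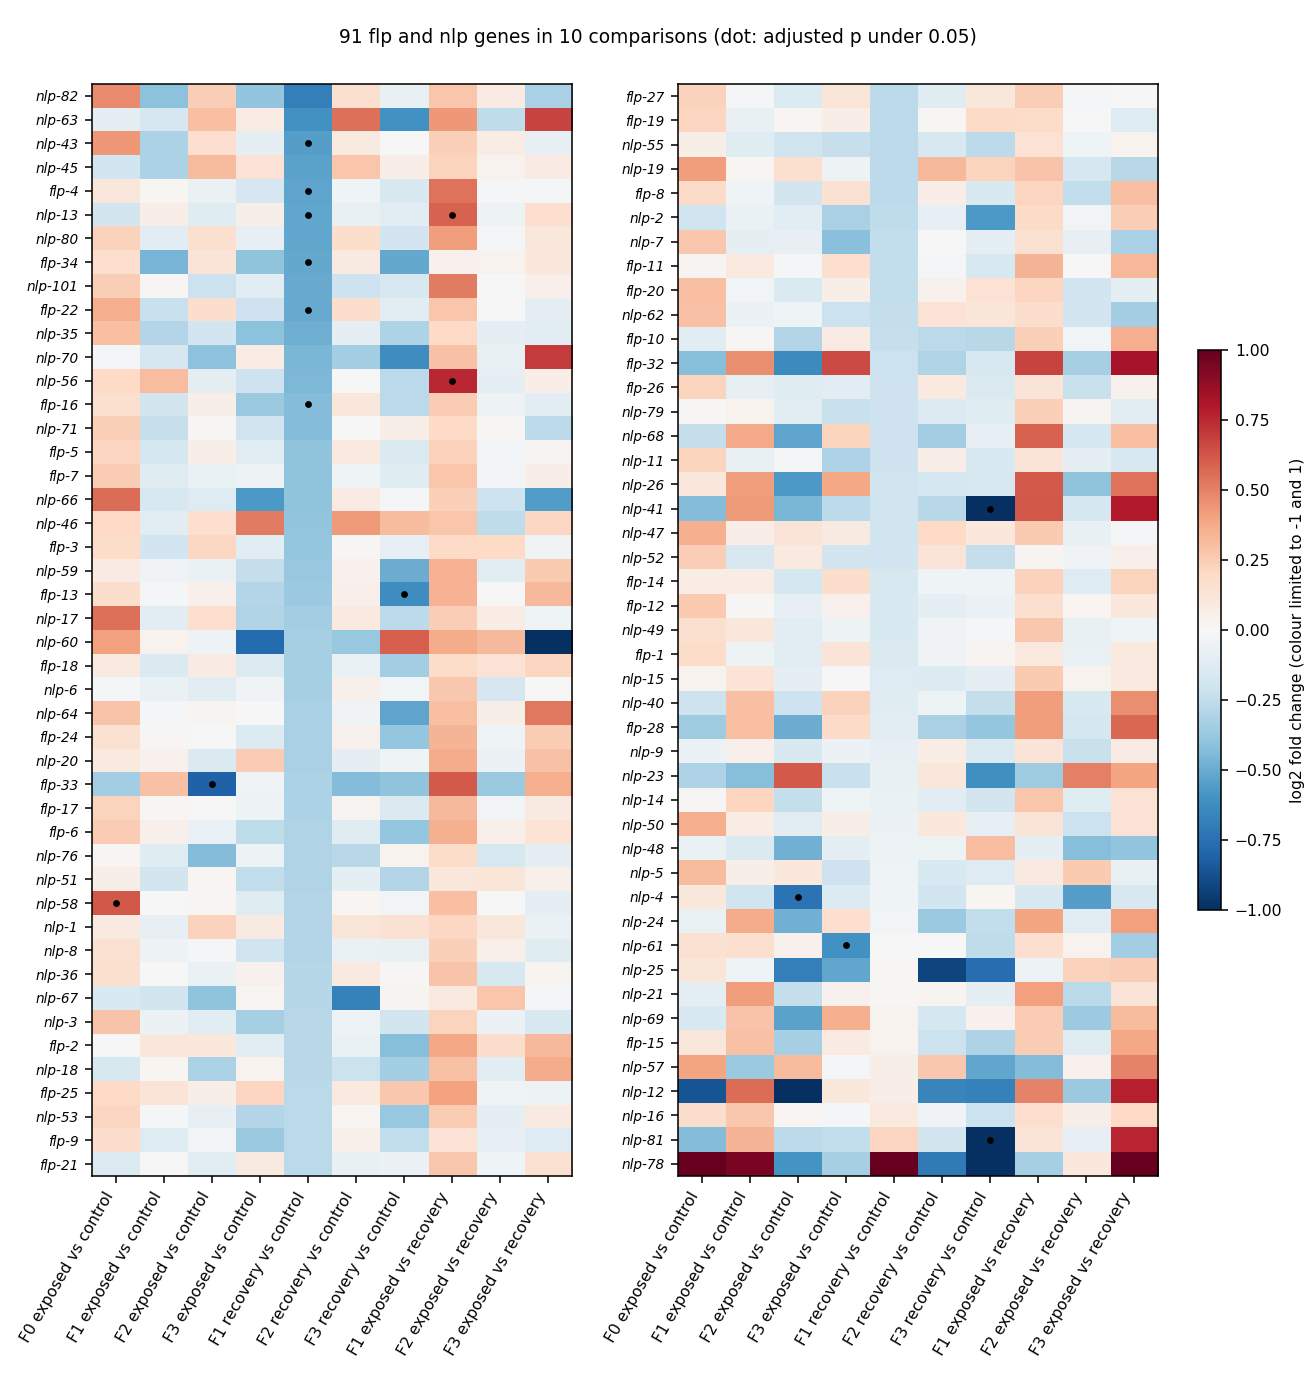
Log2 fold change of the 91 tested genes (rows, ordered by F1 recovery against control) in 10 comparisons within generations (columns); colours end at -1 and 1, which a few genes of low level exceed, and dots mark genes called at an adjusted p under 0.05. The column of F1 recovery against control is blue for 82 genes and that of F1 exposed against recovery is red for 85. In the other columns the blue genes number from 24, in F0 exposed against control, to 72, in F3 recovery against control.

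The fold change in F1 recovery animals moved with exon length over the whole transcriptome, and *flp* and *nlp* genes are short. Among all protein-coding genes the median log2 fold change of F1 recovery against control ran from -0.12 at over 400 and up to 600 exon bases to 0.10 above 3000 bases. The 74 *flp* and *nlp* genes of more than 400 and up to 800 bases had a median of -0.27 and negative values in 91.9%. The 3031 protein-coding genes of that length had a median of -0.11 and negative values in 70.2%. Recovery libraries lay below all controls in 55.4% of these *flp* and *nlp* genes and in 22.01% of these protein-coding genes. The shares called lower were 8.11% of these *flp* and *nlp* genes and 1.88% of these protein-coding genes. The difference between genes of up to 800 and of more than 1800 bases, in median deviation of log2 CPM, was -0.07 to 0.08 in F1 recovery, 0.17 to 0.25 in F1 control and 0.09 to 0.24 in F1 exposed libraries. With a correction for exon length in each library, chosen after the data were seen, the median of the 91 genes was -0.16, with 75 negative. With that correction *nlp-13* remained called (edgeR adjusted p = 0.035) and the other 5 genes did not. In F1 exposed against recovery the same correction gave a median of 0.18, with 83 positive and 2 called. Without the correction, the 74 *flp* and *nlp* genes had a median of 0.26 in that comparison. The 3031 protein-coding genes of their length had a median of 0.10. Exposed libraries lay above all recovery libraries in 55.4% of these *flp* and *nlp* genes and in 25.1% of these protein-coding genes.

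**Figure D5:**
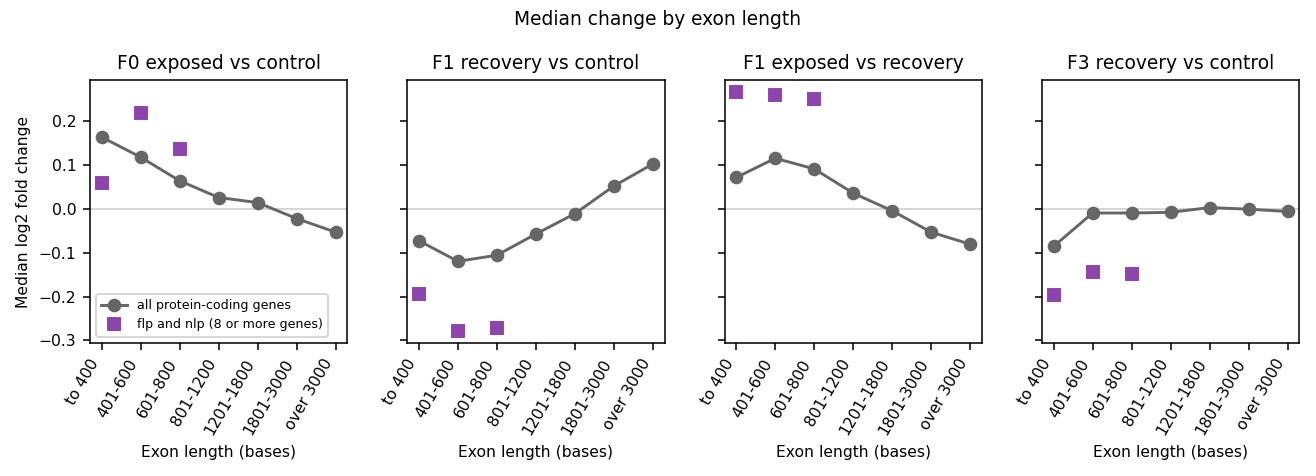
Median log2 fold change by exon length for all protein-coding genes (grey) and for *flp* and *nlp* genes in bins of 8 or more genes (purple), in 4 comparisons. In F1 recovery against control the *flp* and *nlp* medians of -0.19 to -0.28 lie below those of all genes of the same length, -0.07 to -0.12.

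Markers of other tissues and of sperm were followed in the same comparison. All 29 tested major sperm protein genes, which are near-identical and may share reads, had negative values in F1 recovery against control (median -0.27, none called, 19 with an unadjusted p under 0.05). Summed over all 31 in the files, the levels were 3186 to 3374 CPM in recovery against 3737 to 4367 CPM in control libraries. In F1 exposed against recovery the median of the 29 sperm protein genes was 0.01, while that of the *flp* and *nlp* genes was 0.25. Of 10 intestinal genes 9 had negative values in F1 recovery against control (median -0.23, none called, 6 with an unadjusted p under 0.05). Their summed level was 16140 to 17650 CPM in recovery, 18710 to 21790 in control and 20270 to 22040 in exposed libraries. Most of this sum was from the vitellogenin genes *vit-2*, *vit-5* and *vit-6*, with means over all libraries of 6891, 4646 and 7330 CPM. The next gene, *asp-1*, had a mean of 1050 CPM. Of 10 body wall muscle genes 8 had negative values (median -0.11, none called, none with an unadjusted p under 0.05), with sums of 5357 to 5641 CPM in recovery, 5542 to 6509 in control and 6810 to 7646 in exposed libraries. No gene of the intestinal and muscle lists was at 0: the lowest means over all libraries were 3.03 and 136 CPM. Of 11 genes of hypodermis and moulting 8 had positive values in F1 recovery against control (median 0.13, none called, none with an unadjusted p under 0.05). Their median deviation of log2 CPM was 0.71 to 0.86 in recovery, 0.28 to 0.51 in control and 0.70 to 0.94 in exposed libraries, so that recovery lay above control, and their summed level was 266 to 278, 230 to 277 and 249 to 298 CPM. Of 134 cuticle collagen genes 57 had positive values (median -0.08) and 1 fell. Their median deviation was 0.38 to 0.55 in recovery, 0.43 to 0.61 in control and 0.69 to 0.86 in exposed libraries, where it was the highest. Of 12 oocyte and germline genes 6 had positive values (median -0.0013, none called, none with an unadjusted p under 0.05), and of 9 male genes tested 6 had (median 0.20, none called, 2 with an unadjusted p under 0.05). With the cuticle score as a covariate the median of the 91 *flp* and *nlp* genes in F1 recovery against control was -0.25, with 80 negative. Beyond this fit, the part of these tissues, of the cuticle and of sperm in the neuropeptide difference was not tested.

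The median of 20 pan-neuronal genes was -0.01 in F1 recovery against control, with 8 positive. Of these 3 rose and none fell, where 2.05% of all genes tested were called higher: *maco-1* (macoilin), *rgef-1* (a neuronal Ras exchange factor) and *syd-2* (the presynaptic protein liprin-alpha). *maco-1* went from 170 ± 9 to 227 ± 14 CPM (SD, n = 3; log2 fold change 0.41 with an SE of 0.08, edgeR adjusted p = 0.0017). *rgef-1* went from 3.13 ± 0.51 to 5.05 ± 0.19 CPM and *syd-2* from 16 ± 0.4 to 20.3 ± 0.7 CPM (SD, n = 3; edgeR adjusted p = 0.0079 and 0.026). These 3 genes are long, with 3700, 2720 and 3909 exon bases. The whole list of 20 is long too, with a median of 2686.5 exon bases, against 595 for the *flp* and *nlp* genes. All protein-coding genes of more than 1800 and up to 3000 bases had a median log2 fold change of 0.05 in this comparison. Of 14 genes of classical transmitters none was called and none had an unadjusted p under 0.05 (median 0.04). With the pan-neuronal score as a covariate the median of the 91 *flp* and *nlp* genes was -0.26, with 85 negative, and *nlp-43*, *flp-4* and *flp-16* were not called.

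All 7 other neuropeptide genes were negative in F1 recovery against control (median -0.29), 4 with no overlap between groups, and none was called (3 with an unadjusted p under 0.05). Those 4, named after their values were seen, were *pdf-1* and *pdf-2*, which encode pigment dispersing factors, *lury-1* and *capa-1*. *pdf-1* was at 47.3 against 56.8 CPM (log2 fold change -0.27 with an SE of 0.09, edgeR adjusted p = 0.14). The 7 genes are short too, with a median of 572 exon bases. Of all protein-coding genes of more than 400 and up to 800 bases 70.2% had negative values. In 22.01% of those protein-coding genes the recovery libraries lay below all controls. Of 31 insulin-like genes tested, of 39, only *ins-7* fell, where 0.755% of all genes tested were called lower, and the median of the list was -0.04. *ins-7* went from 16.1 ± 1.8 to 10.8 ± 1.3 CPM (SD, n = 3; log2 fold change -0.58 with an SE of 0.16, edgeR adjusted p = 0.037). The 8 antimicrobial *nlp* genes had a median of 0.20, with 7 positive, none called and none with an unadjusted p under 0.05.

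Of 11 genes that process neuropeptides, 3 fell in F1 recovery against control and none rose, where 0.755% of all genes tested were called lower. *egl-3*, the proprotein convertase that cuts most precursors, was at 44.9, 43.2 and 42.5 CPM in recovery and 56.5, 50.6 and 51.4 CPM in control libraries (log2 fold change -0.28 with an SE of 0.07, edgeR adjusted p = 0.024). *sbt-1*, the chaperone of that convertase, was at 44.1, 45.5 and 44.7 CPM in recovery and 63.7, 55.5 and 54.5 CPM in control libraries (log2 fold change -0.37 with an SE of 0.10, edgeR adjusted p = 0.039). *pgal-1*, an enzyme of the amidation step, was at 34.1, 33.6 and 32.3 CPM in recovery and 46.9, 39.99 and 41.1 CPM in control libraries (log2 fold change -0.36 with an SE of 0.10, edgeR adjusted p = 0.048). In F1 exposed animals their means were 52.3, 55.6 and 39.1 CPM, each above the recovery mean, and none was called against recovery (edgeR adjusted p = 0.051, 0.12 and 0.28). The exons of *egl-3*, *sbt-1* and *pgal-1* cover 2565, 791 and 1131 bases. The median log2 fold changes of protein-coding genes in the length bins of these 3 genes were 0.05, -0.11 and -0.06. The list as a whole had a median of -0.10, with 4 of 11 positive.

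Storage and reception genes gave few calls. Of 13 dense core vesicle genes 1 rose, *vps-50*, which acts in vesicle maturation, from 10.01 ± 0.48 to 13.5 ± 1.1 CPM (SD, n = 3; log2 fold change 0.43 with an SE of 0.12, edgeR adjusted p = 0.043). The median of the list was 0.13, and 2.05% of all genes tested were called higher. These genes are long, with a median of 2520 exon bases and 3349 for *vps-50*. All protein-coding genes of more than 1800 and up to 3000 bases had a median log2 fold change of 0.05. Above 3000 bases that median was 0.10. Of 106 peptide receptor genes 95 were tested and 1 rose, against 2.05% of all genes tested called higher. It was *frpr-19*, a receptor-like gene of the FMRFamide class, from 8.27 ± 0.70 to 11.9 ± 0.4 CPM (SD, n = 3; log2 fold change 0.52 with an SE of 0.11, edgeR adjusted p = 0.0061). The exons of *frpr-19* cover 2403 bases. The median of the receptors was -0.01, with a median of 1502 exon bases. None of 23 neprilysin genes, a class of peptide-degrading enzymes, was called (2 with an unadjusted p under 0.05).

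In F2 recovery against control the median of the 91 genes was -0.03 and none was called, against 3.05% of all genes tested (4 with an unadjusted p under 0.05, 1 called by DESeq2). The sign of this median turned in several other settings: among them, it was 0.16 with the cuticle score, with 18 negative, 0.02 with the length correction, 0.01 without F2 recovery replicate 1 and -0.07 without F2 recovery replicate 3. In 2 genes the recovery libraries lay above all controls and in 5 below, against 10.9% and 15.4% of all genes tested. The difference between the F1 and the F2 recovery effects was tested in the same fit. Its median was -0.23 over the 91 genes (-0.39 with the cuticle score), with 21 positive (54.5% of all genes tested were), and 1 gene (1.10%) was called, against 3.76% of all genes tested. That gene was *flp-22*, with a log2 fold change of -0.50 in F1, and in F2 recovery against control at 22 ± 2.9 against 19.4 ± 2.0 CPM (SD, n = 3) (difference in log2 fold change -0.68 with an SE of 0.17, edgeR adjusted p = 0.028).

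In F3 recovery against control the median was -0.15, with 72 of 91 genes negative and 19 positive (48.6% of all genes tested were positive). In 18 genes the recovery libraries lay below all controls, against 4.21% of all genes tested. The 74 *flp* and *nlp* genes of more than 400 and up to 800 exon bases had a median of -0.15, with 20.3% below all controls. The 3031 protein-coding genes of that length had a median of -0.01, with 3.86% below all controls. Of the 91 genes 3 fell (3.30%), and 0.669% of all genes tested were called lower. *flp-13* (IV:7696932-7698420), whose peptides promote stress-induced sleep, was at 7.36, 7.61 and 5.04 CPM in recovery and 8.82, 10.6 and 11.3 CPM in control libraries (log2 fold change -0.62 with an SE of 0.14, edgeR adjusted p = 0.016). In F1 recovery *flp-13* was at 7.68 ± 0.40 against 9.91 ± 1.03 CPM (SD, n = 3; edgeR adjusted p = 0.16). *nlp-81* (IV:3173540-3176117) was at 0.940, 1.09 and 0.658 CPM in recovery and 1.95, 2.23 and 1.24 CPM in control libraries (log2 fold change -1.01 with an SE of 0.22, edgeR adjusted p = 0.016). *nlp-41* (II:14550913-14552511) was at 1.23, 2.29 and 1.86 CPM in recovery and 3.53, 4.49 and 3.05 CPM in control libraries (log2 fold change -1.06 with an SE of 0.27, edgeR adjusted p = 0.044), and its exons overlap *mog-4* on the opposite strand. Without the 2 libraries with few detected genes, F3 recovery replicate 3 and F3 control replicate 3, the median was -0.23, with 81 negative and 1 gene called. Without F3 recovery replicate 1 it was -0.07, with 59 negative, and with the length correction it was -0.11, with 68 negative. Leaving out single libraries gave 2, 7 and 0 called genes for recovery replicates 1, 2 and 3, and 1, 8 and 1 for control replicates 1, 2 and 3. Of all genes tested, 882 were called without recovery replicate 2 and 918 without control replicate 2. The number was 26 to 122 without each of the others and 279 with all libraries. The difference between the F1 and the F3 recovery effects had a median of -0.09 (-0.16 without F3 recovery replicate 1, -0.02 with the length correction), and 2 genes were called (2.20%), both higher, against 1.83% of all genes tested. They were *nlp-81*, with a difference in log2 fold change of 1.22 (SE 0.30, edgeR adjusted p = 0.029), and *nlp-78*, with 2.72 (SE 0.70, edgeR adjusted p = 0.038).

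Under irradiation few of these genes were called. In F0 exposed against control animals the median of the 91 genes was 0.16, with 67 positive (52.6% of all genes tested were), and the exposed libraries lay above all controls in 26 genes, against 14.1% of all genes tested. Of the 91 genes 1 rose (1.10%), and 1.29% of all genes tested were called higher. That gene, *nlp-58* (V:9946321-9948940), was at 6.45, 5.09 and 4.69 CPM in exposed and 3.07, 4.09 and 3.38 CPM in control libraries (log2 fold change 0.62 with an SE of 0.15, edgeR adjusted p = 0.032). Without F0 exposed replicate 1, or without F0 control replicate 1, 2 or 3, it was not called. Of more than 400 and up to 800 exon bases, the median was 0.09 for all protein-coding genes and 0.17 for the 74 *flp* and *nlp* genes. With the correction for exon length, and also without F0 control replicate 1, the median of the 91 genes was 0.09.

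In F2 exposed against control animals 2 of the 91 genes fell (2.20%), against 6.2% of all genes tested called lower, and the median was -0.08, with 60 negative. The sign of the median turned with the cuticle score (0.09, with 29 negative) and with the length correction (0.04, with 34 negative). *nlp-4* (I:10517321-10518055) was at 2.94, 3.39 and 4.04 CPM in exposed and 5.55, 6.70 and 5.07 CPM in control libraries (log2 fold change -0.74 with an SE of 0.14, edgeR adjusted p = 0.0043), and it was not called with the cuticle score. *flp-33*, outside the rule for named genes because its groups overlapped, was at 1.31 ± 0.26 against 2.36 ± 0.87 CPM (SD, n = 3; edgeR adjusted p = 0.027), and its exons overlap *ntr-1* on the opposite strand. Without F2 control replicate 3 the count was 9 and without F2 control replicate 2 it was 0. It was 1 without F2 exposed replicate 1 or 3 or F2 control replicate 1. Of all genes tested, 2313 were called without F2 control replicate 3 and 109 without F2 control replicate 2, against 1587 with all libraries. In F3 exposed against control animals 1 gene fell (1.10%), against 2.37% of all genes tested called lower, with a median of -0.06. That median was -0.0001 without F3 exposed replicate 2, -0.04 without F3 control replicate 1, -0.13 without F3 exposed replicate 1 and -0.15 with the cuticle score. The gene was *nlp-61*, at 1.81 ± 0.62 against 2.75 ± 0.34 CPM (SD, n = 3; edgeR adjusted p = 0.048), with overlapping groups. Leaving out F3 exposed replicate 2 or 3 or F3 control replicate 1 or 3 gave 0 called genes, F3 exposed replicate 1 gave 3 and F3 control replicate 2 gave 5. Of all genes tested, 438 to 818 were called in the fits that gave 0. Without F3 exposed replicate 1 or F3 control replicate 2 they were 896 and 1223, against 923 with all libraries. In exposed against recovery animals none was called in F2 or F3, against 0.00567% and 1.68% of all genes tested. In these 2 comparisons 1 and 20 genes had an unadjusted p under 0.05, and DESeq2 called 0 and 1. In F3 the count was 4 without exposed replicate 2 or recovery replicate 2, where 986 and 898 of all genes tested were called, against 296 with all libraries.

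Across the 10 comparisons within generations 14 of the 91 genes were called at least once and 77 in none. Over the 11 group means the genes of a pair had a median Pearson correlation of 0.349. Over the 33 deviations from the group means it was 0.174, and these values share library size and scaling. Of the genes named here *flp-34* ranged widely: its mean was 6.82 ± 0.46 CPM in F1 control and 2.32 ± 0.49 CPM in F3 recovery animals (SD, n = 3), a ratio of 2.94.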

How the data were processed

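RNA was taken from whole N2 animals in 33 libraries. Per the labels' protocols, strand-specific paired-end TruSeq libraries with fragments of about 350 bp were read as 150 bases. The submitters' processing notes name STAR and DESeq2 1.22.2. No source used here gives the build or the program and strand option behind the counts. The values the authors deposited are raw counts per gene, with no normalisation. Of 46778 identifiers 46603 matched the Ensembl WBcel235 annotation, which gave symbols, positions and exon lengths.

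Genes were filtered with filterByExpr, which left 17627, scaled with TMM and fitted in edgeR 4.0.16 (limma 3.58.1, R 4.3.3) for a robust quasi-likelihood test, with 1 coefficient per group over all 33 libraries (22 residual degrees of freedom). Adjusted p-values are Benjamini-Hochberg over all genes tested. Standard errors were calculated back from the F statistic. DESeq2 1.42.0 was an alternative. Genes not tested held at most 0.0267% of a library's counts. The scripts were tested on simulated data. No pair of replicates appeared to be a copy. Depth limits genes below 1 CPM, which rest on few reads.

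The genes, lists and comparisons were chosen with earlier results of these data known. Genes were named if called, with groups that did not overlap and at least 1 CPM in the higher group, up to 10 each way in F1 recovery against control and up to 4 elsewhere. For differences between generations neither non-overlap nor 1 CPM was required. The 10 genes of highest RPKM, and up to 3 called genes of each list, were added. Alternatives were other scalings, tests, filters, covariates and omitted libraries; the length correction, a lowess curve (span 0.2) of log2 CPM on exon length per library, was added after the data were seen.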

Additional observations from a re-analysis of the deposited data

Results flagged for a closer look

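Effects of recovery that differed between generations were looked for with the test of the difference itself. For F1 against F2, 1 of the 91 genes differed, *flp-22*, by -0.68 on the log2 scale. Its call was lost in 9 of 20 other settings, among them the fits without F1 recovery replicate 2 or 3, F1 control replicate 1 or 3, F2 recovery replicate 2 or 3, or F2 control replicate 1 or 2. For F1 against F3, 2 genes differed: *nlp-78* by 2.72 and *nlp-81* by 1.22. In *nlp-78* F3 control replicate 3, at 0.880 CPM, was above the other F3 controls at 0.263 and 0.363 CPM, and without it the call was lost. It was lost in 10 of 21 other settings in all, among them the fits without F1 recovery replicate 1, 2 or 3, F1 control replicate 1 or 2, or F3 recovery replicate 3. The call of *nlp-81* was lost in 9 of 21 other settings, among them the fits without F1 recovery replicate 1 or 2, F1 control replicate 1 or 3, F3 recovery replicate 3, or F3 control replicate 1 or 2.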

How the results depend on the processing

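The median of the 91 genes in F1 recovery against control kept its sign in each of the alternatives and lay between -0.29 and -0.16. No named gene reversed: of 260 results of named genes in other settings 160 stayed on their side of the threshold and 100 lost the call. The median turned sign in at least 1 alternative in F1 and F2 exposed against control, F2 recovery against control, and F2 and F3 exposed against recovery. Its ranges over all settings there were -0.10 to 0.03, -0.11 to 0.09, -0.07 to 0.16, -0.11 to 0.04 and -0.02 to 0.18. Of all 17627 genes tested, 495 were called in F1 recovery against control, 717 with DESeq2's test and 1026 with F1 fitted alone. Counts of called genes among the 91 also moved. In the order F0, F1, F2 and F3 exposed against control, F1, F2 and F3 recovery against control, F1, F2 and F3 exposed against recovery, and the F1 minus F2 and F1 minus F3 differences, the counts were 1, 0, 2, 1, 6, 0, 3, 2, 0, 0, 1 and 2.
DESeq2's test gave 2 in F0 exposed against control, 1 in F1 and 3 in F3, and 13, 1 and 6 in F1, F2 and F3 recovery against control. It gave 4 and 1 in F1 and F3 exposed against recovery, and 7 and 1 in the 2 differences. DESeq2's scaling gave 2 in F0 and 2 in F3 exposed against control and 2 in F1 minus F2. Without a filter there were 2 in F0 and 0 in F3 exposed against control and 0 in F1 minus F3. With the cuticle score there were 2, 0 and 3 in F0, F2 and F3 exposed against control and 1 in F1 exposed against recovery. With the rRNA share there were 2, 1 and 2 in the same 3 comparisons, 1 in F3 recovery and 2 in F1 minus F2. With the neuronal score there were 2 and 1 in F0 and F2 exposed and 0 in each difference. With a generation fitted alone there were 0 in F0 and F3 exposed, 19, 2 and 0 in F1, F2 and F3 recovery, and 12 in F1 exposed against recovery. With the length correction there were 1 in F2 exposed, 2 in F3 exposed, 1 in F1 recovery and 4 in F3 recovery. Without F3 recovery replicate 3 and F3 control replicate 3 there were 0 in F3 exposed, 1 in F3 recovery and 1 in F1 minus F3.
Leaving out single libraries gave, in the first order, 0 to 1, 0 to 0, 0 to 9, 0 to 5, 0 to 4, 0 to 2, 0 to 8, 0 to 2, 0 to 0, 0 to 4, 0 to 3 and 0 to 2. With the replicate block the count was 2 in F0 and 0 in F3 exposed against control and 5 in F1 recovery against control. Pairing by number was not seen: same-numbered libraries deviated with correlations of -0.222 to 0.333 over 30 pairs, against -0.433 to 0.288 for other pairs. With 3 libraries per group these overlapping ranges cannot exclude pairing. The cause of these changes was not tested. Leaving out a library changes both which libraries are fitted and how many.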

Other observations

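Some members varied widely between replicates of a group. The median coefficient of variation within groups was 4.60% for *flp-1* and 24.6% for *nlp-12*, which encodes a cholecystokinin-like peptide. In F2 control libraries *nlp-12* was at 3.70, 3.41 and 1.27 CPM, *nlp-41* at 4.41, 3.49 and 1.48 CPM and *nlp-40* at 146, 120 and 75.6 CPM. Replicate 3 was the lowest of the 3 for each of these genes, which were chosen after their values were seen.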
